A study of Danio rerio with 10 samples.

Results

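The transcriptome described here is that of control zebrafish embryos (Danio rerio) at 33 hours post fertilization (hpf). It rests on the 5 libraries titled wt with the numbers 1, 2, 3, 4 and 6, out of 10 in the series, called controls 1, 2, 3, 4 and 6 below. Each library was made from polyA RNA of a pool of 10 whole embryos. The other 5 libraries come from rbpms2a-/-; rbpms2b-/- double mutants, and they are not analysed here. The controls are labelled wt, but they are siblings left after the double mutants had been picked out by eye, so carriers of either mutation may be among them and their genotypes are not known. The labels name no strain, no treatment and no transgene, and they do not say whether the pools came from separate clutches, so the spread between pools may be technical in part.

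At this age the zebrafish embryo has a beating heart, circulating primitive red cells, contracting trunk muscle and a growing brain and eye, and it still lives on its yolk. The outer epithelium, the periderm, covers the whole body, and the yolk syncytial layer packages yolk lipid into lipoproteins. Hatching gland cells on the yolk sac store the proteases that later open the egg envelope. In a whole-embryo pool, each tissue adds RNA in proportion to its number of cells and to the RNA in each cell, and those contributions cannot be told apart.

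Total counts were 36.0 M (M, 1000000 counts), 35.6 M, 32.8 M and 36.0 M in controls 1 to 4 and 21.5 M in control 6, a mean of 32.4 ± 6.22 M (SD, n = 5). Levels of one gene across libraries are given as CPM (counts per 1000000 counts, scaled with TMM factors), and levels of different genes are compared as FPKM (fragments per kilobase and per 1000000 fragments), which is per length. A level of 1 CPM stood for between 20.7 and 36.5 counts. Of 32266 gene IDs, 18036 had a mean of at least 1 CPM, and 17023 reached 1 CPM in all 5 libraries. Another 5414 IDs had no count in any control. When every library was thinned to the total of control 6, between 24163 and 24329 genes had a count, and control 6 stood inside that range with 24196. The 10 genes with the most counts in a library held 7.93% of its counts in control 1 and 10.4% in control 6, with controls 2 to 4 between them.

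The most abundant transcripts were those of contracting muscle, mitochondria, protein synthesis, skin, red cells and the yolk lipoproteins. Of the 30 genes with the highest mean FPKM, 5 were fast muscle genes, 5 were encoded by mitochondrial DNA, 5 encoded cytosolic ribosomal proteins, 4 were red cell genes, 3 were epidermal keratins and 3 were yolk syncytial layer genes. The remaining 5 were in no list, and 1 of them, AL935210.1, is a globin by its reference symbol. Together the 30 held 17.7% of the summed FPKM, and the 100 highest held 37.9%, of which 49 genes encoded ribosomal proteins.

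The gene with the highest FPKM was actc1b, an alpha-actin of skeletal muscle. Its FPKM was 5689, 6399, 6782, 9993 and 11911 in controls 1, 2, 3, 4 and 6, a mean of 8155 ± 2671 (SD, n = 5). Controls 4 and 6 were the high libraries, and controls 1 to 3 lay below both. The fast muscle tropomyosin tpma averaged 6868 ± 1419 FPKM, with the same pair of libraries on top. The mitochondrial cytochrome oxidase genes, whose products form the core of respiratory complex IV, were far steadier between pools. The FPKM of mt-co2 averaged 7662 ± 337, that of mt-co1 7460 ± 601 and that of mt-co3 6371 ± 588. For mt-co3, control 6 was alone at the top with 7418 FPKM, where the other 4 libraries had between 6063 and 6200. The FPKM of eef1a1l2, a translation elongation factor 1 alpha gene, averaged 7202 ± 323.

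Among the periderm keratins, the FPKM of krt4 was 6109, 7167, 6567, 5370 and 5942 in controls 1, 2, 3, 4 and 6. Control 2 was the highest and control 4 the lowest. The keratins cyt1 and cyt1l averaged 4565 ± 452 and 3913 ± 443 FPKM. The apolipoproteins of the yolk syncytial layer, which carry lipid from yolk to embryo, stood near them: apoa1a averaged 4313 ± 638, apoa1b 3596 ± 435 and apoa2 3458 ± 511 FPKM. The embryonic globin hbae3, an alpha chain of haemoglobin, averaged 3508 ± 761 FPKM. The beta chain genes hbbe1.3, hbbe1.1 and hbbe1.2 averaged 3487, 3176 and 3015 FPKM. The cytoplasmic actins actb2 and actb1 averaged 3563 ± 266 and 2933 ± 106 FPKM, and actb1 was the steadier of the pair. The thymosin gene tmsb4x, whose product binds actin monomers, averaged 3453 ± 279 FPKM.

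**Figure D1:**
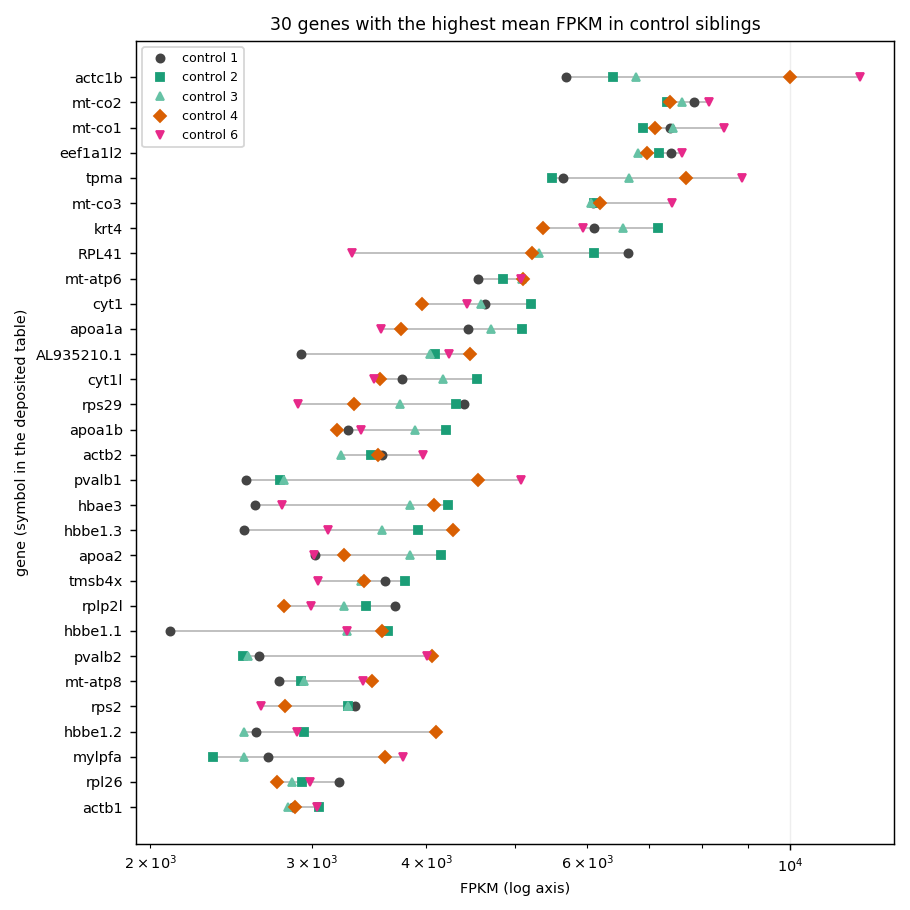
Each row is 1 of the 30 genes with the highest mean FPKM, each point is 1 control library, the grey line spans the 5 libraries, and the x axis is FPKM on a log scale. The muscle genes actc1b, tpma, pvalb1, pvalb2 and mylpfa have controls 4 and 6 on the right, while actb1 and mt-co2 lie close together.

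FPKM of very short genes rests on a small divisor. RPL41, a ribosomal protein gene with an effective length of 283 bases, averaged 5320 ± 1263 FPKM, and rps29, with 169 bases, averaged 3739 FPKM. The most marked case was mt-atp8, a subunit of the mitochondrial ATP synthase. It had 3107 FPKM from only 47.8 CPM, with an effective length of 16.2 bases. Of the 30 highest genes, 26 had an effective length of at least 300 bases. With shorter genes left out these 26 had to stay among the 30 highest, so that is no check on the ranking.

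The gene lists for tissues and processes held 695 genes and 28.8% of all counts. The summed FPKM of a list differed between its highest and lowest library by at least 1.5 times in 10 of 40 lists. Those lists were fast skeletal muscle, heart muscle, red blood cell, lens, photoreceptor and pineal, hatching gland, notochord, cartilage and bone, pancreas and gut, and oocyte. The sums of pronephros and inner ear, by contrast, differed by 1.04 times. Some of the wider spans rest on few genes or low levels. The leading gene gave 86.2% of the mean sum for heart muscle, 65.4% for pancreas and gut and 56.3% for hatching gland. It gave 54.2% for notochord and 51.6% for photoreceptor and pineal. In photoreceptor and pineal the leading gene was the red opsin ID opn1lw1. It had 24.15 FPKM in control 6 with 0 CPM there, and 8.50 to 9.56 FPKM in the other libraries. In cartilage and bone, col11a2 ran from 11.1 to 42.7 FPKM, where sox9b stayed between 29.0 and 38.3 FPKM. No oocyte ID reached 1 CPM. A wide span of such a list is no measure of the tissue as a whole.

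**Figure D2:**
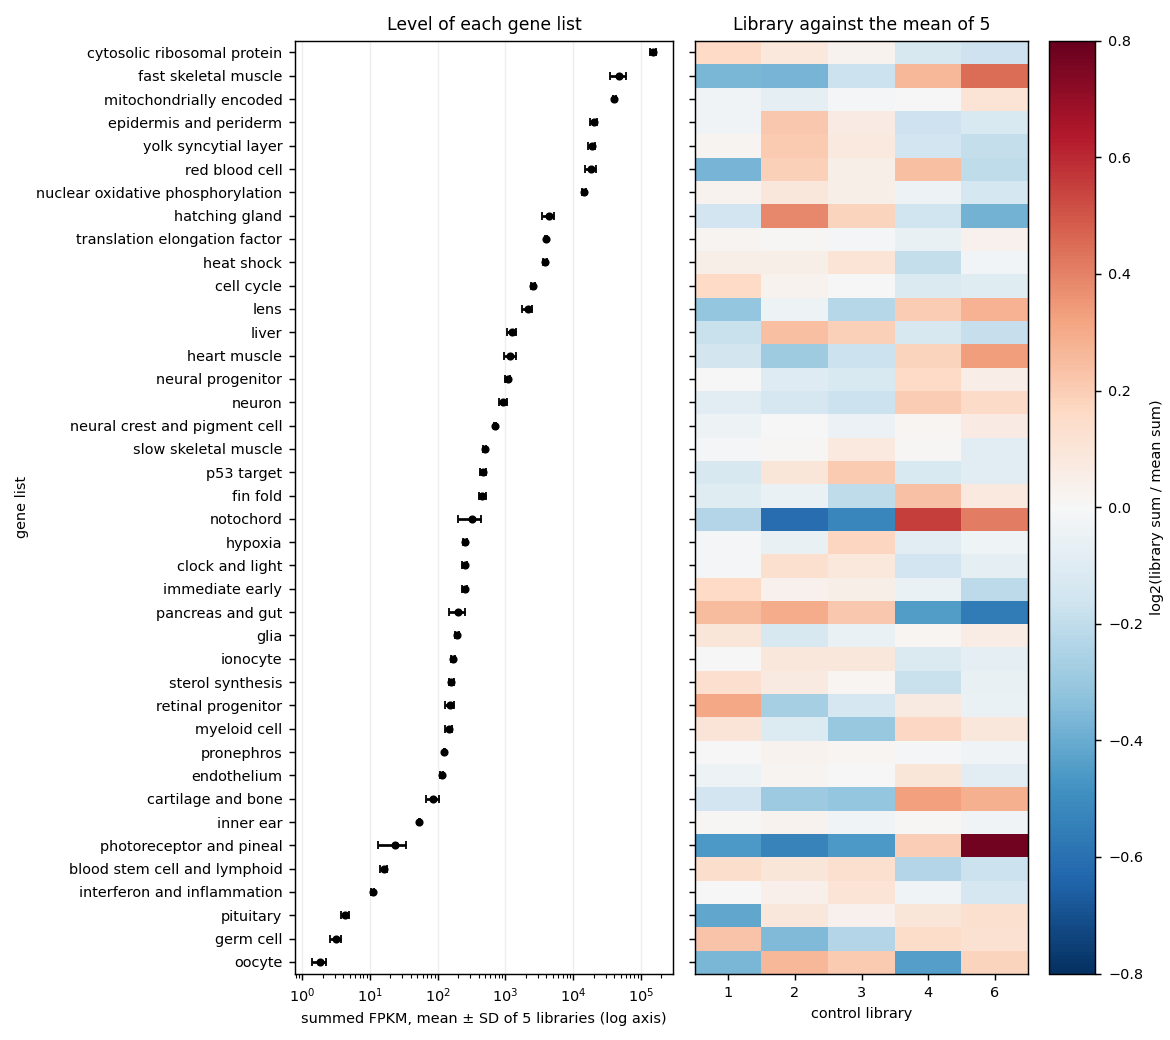
The left panel gives the summed FPKM of each gene list (mean ± SD of 5 control libraries, log axis), and the right panel the log2 ratio of each library's sum to that mean, red above and blue below it. Fast muscle and notochord are red in controls 4 and 6, hatching gland is red in control 2, and pronephros and inner ear are nearly white throughout.

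Fast skeletal muscle was the tissue list with the highest summed level, and it varied with the library. Its 26 gene IDs, all above 5 CPM, held 6.65 ± 1.98% of counts. Their summed FPKM was 36965, 36891, 42273, 57302 and 65157 in controls 1, 2, 3, 4 and 6. Controls 4 and 6 were the highest, and control 6 had 1.77 times the sum of control 2. Control 6 was the highest library for 20 of the 26 genes and control 4 for 5, so that 1 of this pair was highest for 25. Over all 13187 genes with a mean of at least 5 CPM, control 6 was highest for 22.1%, control 4 for 19.8% and either of them for 41.9%. Of the 26 genes, 12 differed at least 2 times between their highest and lowest library, against 3.81% of all genes. The calcium-buffering parvalbumin pvalb1 had 1225, 1332, 1354, 2240 and 2502 CPM in controls 1, 2, 3, 4 and 6. The alpha-actin acta1b, the most variable gene of the list, had 1979, 1816, 1985, 3766 and 4977 CPM. Both genes were near level in controls 1 to 3 and higher in controls 4 and 6. The calcium pump gene atp2a1, which refills the sarcoplasmic reticulum, ran from 4405 CPM in control 1 to 11422 CPM in control 6. The slow muscle list, with only 3 detected IDs, did not share this spread. The slow myosin heavy chain smyhc1 had 1273, 1337, 1512, 1375 and 1527 CPM, and the summed FPKM of the slow muscle list was 491 ± 20.5. Of that mean sum, smyhc1 gave 63.8%.

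Heart muscle genes were much less abundant. The heart list summed to 1187 ± 221 FPKM, but actc1a made up 86.2% of that sum. This actin gene had 1012, 901, 993, 1340 and 1545 CPM, again highest in controls 4 and 6. The myosin light chain myl7, a marker of heart muscle cells, had 24.4, 26.2, 27.3, 26.5 and 24.5 CPM, and cmlc1, another cardiac myosin light chain, averaged 19.1 CPM. Both were nearly level across the pools. The atrial hormone gene nppa was the most variable heart gene, with 8.52, 8.80, 6.46, 14.5 and 16.6 CPM and its top values in controls 4 and 6.

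Blood was led by globins. The red blood cell list summed to 14045, 20777, 18778, 21490 and 15803 FPKM in controls 1, 2, 3, 4 and 6, a mean of 18178 ± 3194. Control 1 was the lowest library for 10 of its 15 genes above 5 CPM, where control 1 was the lowest for 17.2% of all genes. The ID AL935210.1, which the reference names hbae1.2, an embryonic alpha globin, is in no list, so this sum leaves it out. It averaged 3951 ± 600 FPKM, above hbae3, and was lowest in control 1 as well. The beta globin hbbe3 was the most variable red cell gene, with 614, 928, 870, 674 and 437 CPM. White cell genes had lower levels. Lysozyme, lyz, made by neutrophils and macrophages, averaged 91.7 ± 14.4 FPKM, and the neutrophil peroxidase mpx averaged 18.5 ± 1.67 FPKM. The stem and progenitor cell factor myb averaged 11.4 ± 1.97 FPKM, while runx1 averaged 1.12 FPKM. The runx1 ID was under 1 CPM in all libraries, at an effective length of 274 bases against 2525 for myb. The 16 endothelial genes summed to 114 ± 5.50 FPKM. Among them, the transcription factor fli1a had 50.7 CPM in control 4 and between 41.7 and 43.5 CPM in the others.

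Epidermal genes were mostly highest in control 2. The 20 epidermal genes summed to 19646, 23224, 21019, 17902 and 18424 FPKM. Control 2 was the highest library for 16 of the 20 genes, against 17.2% of all genes, and control 2 or 3 for 18, against 35% of all genes, with control 6 the lowest for 13, against 24.5% of all genes. The annexin anxa1c was the most variable epidermal gene, with 238, 339, 380, 238 and 205 CPM. The hatching gland list had a wider span, from 3328 FPKM in control 6 to 5647 FPKM in control 2, with a mean of 4335 ± 930. The hatching enzyme he1a had 1510, 2429, 2064, 1793 and 1662 CPM, and its relative he1b had 489, 584, 512, 391 and 226 CPM. Control 2 was the highest library for both. Genes of ionocytes, the salt-transporting cells of the skin, summed to 167 ± 10.9 FPKM, with 178 FPKM in both controls 2 and 3, led by the carbonic anhydrase ca2 with 79.2 FPKM.

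The yolk syncytial layer list summed to 18978 ± 2187 FPKM, and control 2 was again the highest library, for 7 of 13 genes against 17.2% of all genes. The apolipoprotein B gene apobb.1, whose product is the backbone of large lipoproteins, had 9226, 10954, 11006, 8426 and 9929 CPM. Of the IDs named afp4, the more abundant one had 706 CPM in control 1 and between 319 and 429 CPM in the others. The liver list summed to 1247 ± 184 FPKM, of which the iron carrier transferrin, tfa, gave 48.8%. Which tissue this RNA came from cannot be told in whole-embryo pools. The gene tfa had 1146, 1480, 1410, 1116 and 997 CPM. The fibrinogen chain fgg had 111, 181, 183, 148 and 152 CPM, lowest in control 1. The intestinal fatty acid binding protein fabp2 led the pancreas and gut list. It had 151, 140 and 140 CPM in controls 1 to 3 but 69.2 and 67.7 CPM in controls 4 and 6. Insulin, ins, from beta cells, stayed between 6.02 and 7.97 CPM.

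Neuron genes had their highest levels in controls 4 and 6, while progenitor and glial genes were mixed. All 20 neuron genes were above 5 CPM, and their highest library was control 4 for 9 and control 6 for 11, against 41.9% of all genes for that pair of libraries. The list summed to 871, 844, 822, 1069 and 1028 FPKM. The neuronal tubulin tubb5 had 499, 543, 508, 651 and 640 CPM. The RNA-binding protein gene elavl3, a mark of young neurons, had 431, 366, 380, 476 and 502 CPM. The glutamate decarboxylase gad2, which makes the transmitter GABA, varied most, with 29.5, 23.5, 22.3, 43.0 and 45.3 CPM. Neural progenitor genes went 2 ways. The radial glia gene fabp7a had 177, 176, 161, 285 and 267 CPM, highest in controls 4 and 6. The progenitor factor sox3 had 287, 256, 276, 220 and 222 CPM, lowest in that same pair. In glia, the filament gene gfap had 208, 177, 190, 156 and 164 CPM, highest in control 1 and lowest in controls 4 and 6, while the glutamate transporter slc1a2b was highest in controls 4 and 6 with 158 and 164 CPM.

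**Figure D3:**
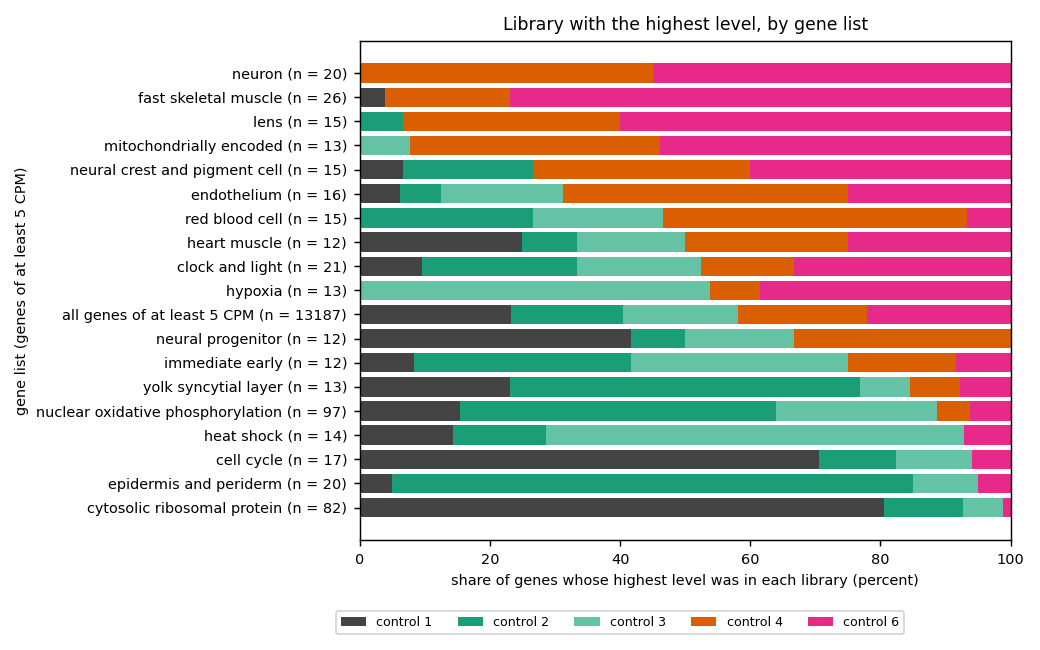
Each bar is a gene list with at least 12 genes of 5 CPM or more, or all such genes, divided by the share (percent) of its genes whose highest CPM lay in each control library. Neuron, fast muscle, lens and mitochondrially encoded bars belong mostly to controls 4 and 6, the epidermis bar to control 2, and the ribosomal protein and cell cycle bars to control 1.

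The eye lists were led by lens crystallins, the soluble proteins of the lens fibre. The lens list summed to 1710, 2056, 1807, 2441 and 2570 FPKM, and control 4 or 6 was the highest library for 14 of 15 genes above 5 CPM, against 41.9% of all genes. The crystallin cryba4 averaged 397 ± 73.4 FPKM and crybb1 averaged 371 ± 81.2 FPKM. The retinal progenitor factors did not move together. The gene atoh7, needed for the first retinal neurons, had 10.9, 7.03, 5.92, 22.5 and 17.8 CPM and was highest in controls 4 and 6. The eye field gene pax6a had 111, 68.6, 79.2, 97.5 and 83.5 CPM and was highest in control 1. The photoreceptor and pineal factor crx had 3.97, 1.99, 1.89, 16.1 and 13.5 CPM, and otx5, which acts in the pineal organ, had 2.63, 2.02, 1.503, 10.25 and 6.81 CPM. Of the 11 matched photoreceptor and pineal IDs, 3 reached a mean of 1 CPM, where 18036 of all 32266 IDs did. The red opsin ID opn1lw1 had 11.99 FPKM in the deposited values but a mean of 0.022 CPM, so its FPKM is not backed by reads counted here.

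Of 9 notochord genes above 5 CPM, control 4 or 6 was the highest library for 6, against 41.9% of all genes. The genes of this list and of the cartilage list that varied most were collagen and matrix genes. The type II collagen col2a1a, made by notochord and cartilage, had 757, 531, 535, 1650 and 1483 CPM. The small proteoglycan epyc had 45.0, 34.3, 51.2, 119 and 112 CPM. The fibrillar collagen col11a2 had 121, 67.7, 75.2, 275 and 230 CPM. The summed FPKM of the notochord list spanned 2.24 times, from 211 FPKM in control 2 to 472 FPKM in control 4. Of the mean sum, col2a1a gave 54.2%, and this gene alone ran from 94.8 FPKM in control 2 to 292 FPKM in control 4. The span of the sum need not hold for the other genes. Caveolin 1, cav1, another notochord gene, did not follow, with 213, 194, 189, 201 and 213 CPM. The cartilage factors sox9a and sox9b averaged 23.0 ± 1.84 and 33.9 ± 4.11 FPKM. In the fin fold, the actinodin and1, a protein of the fin ray fibrils, had 339, 377, 340, 446 and 427 CPM.

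A few list sums were close to constant, although single members varied. The 13 matched pronephros IDs summed to 125, 128, 126, 124 and 123 FPKM. The podocalyxin gene podxl, on podocytes, stayed between 73.6 and 76.8 CPM, and the cadherin cdh17 of the kidney tubule between 72.0 and 78.0 CPM. The phosphate transporter slc20a1a varied most, with 6.85, 7.28, 7.37, 8.60 and 12.8 CPM. The 6 inner ear IDs summed to 53.1 ± 0.938 FPKM, led by starmaker, stm, an otolith protein, with 23.2 ± 1.76 FPKM. The otolith matrix gene oc90 had 51.2, 41.9, 37.2, 38.5 and 33.5 CPM. The pigment and neural crest list summed to 697 ± 21.6 FPKM. Its leading gene, gch2, which feeds yellow pigment synthesis, had 462, 474, 431, 449 and 472 CPM. The melanin enzymes tyrp1b and dct averaged 97.6 ± 6.48 and 97.0 ± 7.69 FPKM. The neural crest gene crestin varied most, with 30.7, 48.4, 42.5, 26.2 and 34.9 CPM.

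Germ cell and oocyte genes were near the detection limit. Of 7 germ cell IDs, 1 reached 1 CPM, the helicase gene ddx4 with 1.19 CPM, and of 6 oocyte IDs none did, where 17882 to 18068 genes per library did. Of 6 pituitary IDs, prolactin, prl, was the 1 above 1 CPM, with 2.05 CPM in control 1 and between 3.04 and 3.61 CPM in the others.

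Ribosomal protein genes made up 20.3% of the summed FPKM and 7.43 ± 0.749% of counts. Their summed FPKM was 170191, 161349, 155390, 139516 and 136034 in controls 1, 2, 3, 4 and 6. Control 1 was the highest library for 66 of 82 genes above 5 CPM, against 23.2% of all genes, and the lowest was control 6 for 49 and control 4 for 32, against 24.5% and 23.9% of all genes. Genes of different length also differed in level between the libraries. Over all genes with an effective length of 300 to 600 bases, the median log2 deviation from the gene's own mean was 0.06 in control 1, 0.09 in control 2 and -0.16 in control 6. Over all genes of 4800 bases or more it was 0.06 in controls 4 and 6 and -0.08 in control 2. Among the ribosomal protein genes, the 57 under 600 bases had a median of 0.16 in control 1 and -0.18 in control 6, and the 25 longer ones had 0.11 and -0.11. What part length has in the spread of any list was not tested.

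Genes of growth and energy supply differed less between pools. The replication clamp pcna had 759, 732, 676, 601 and 657 CPM, and control 1 was the highest library for 12 of 17 cell cycle genes, against 23.2% of all genes. The mitochondrially encoded genes summed to 40356 ± 1936 FPKM. Control 4 or 6 was the highest library for 12 of these 13 genes, against 41.9% of all genes. The nuclear genes of oxidative phosphorylation summed to 14368 ± 896 FPKM, with control 6 the lowest library for 59 of 97 genes, against 24.5% of all genes. The elongation factor eef2b averaged 1745 ± 57.0 FPKM.

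Lists for stress, light and signalling showed where single inducible genes varied within steady sums. The heat shock list summed to 3832 ± 294 FPKM, carried by the constitutive chaperones hspa8 and hsp90ab1, which averaged 1609 ± 120 and 1443 ± 75.5 FPKM. Its inducible members varied far more. The gene hsp70.3 had 11.95, 37.8, 55.9, 18.4 and 34.1 CPM. The collagen chaperone serpinh1b had 144, 373, 435, 117 and 199 CPM, and the co-chaperone dnajb1b had 15.3, 32.1, 36.7, 10.6 and 16.5 CPM. Control 3 was the highest library for 9 of 14 heat shock genes, against 17.7% of all genes, and control 4 the lowest for 8, against 23.9%. Counts of hsp70.3 and serpinh1b were not whole in any library, which an estimated count can be where reads match several genes.

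In the hypoxia list, the oxygen-sensing prolyl hydroxylase egln3 had 14.0, 13.7, 28.1, 1.93 and 3.43 CPM. The collagen prolyl hydroxylase p4ha1b had 50.3, 57.9, 83.2, 42.8 and 29.5 CPM. Both were highest in control 3 and lower in controls 4 and 6, while lactate dehydrogenase ldha was highest in controls 4 and 6 with 125 and 136 CPM. The light-induced clock gene per2 had 15.3, 29.96, 28.5, 9.75 and 27.5 CPM, lowest in control 4. The immediate early gene fosab, a stimulus-induced transcription factor, had 7.64, 8.91, 10.3, 8.27 and 2.27 CPM. The antiproliferative gene btg2 had 239.4 CPM in control 1 and between 183 and 189 CPM elsewhere. The sterol synthesis list summed to 160 ± 13.2 FPKM, and control 4 was the lowest library for 8 of 11 genes, against 23.9% of all genes. The p53 target ccng1 had 483, 586, 636, 507 and 538 CPM. The 12 interferon and inflammation IDs summed to 11.0 ± 0.690 FPKM. Of these, 5 reached a mean of 1 CPM, where 18036 of all 32266 IDs did.

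By the biotype column of the deposited table, 25089 IDs were protein coding, and 17340 of these had a mean of at least 1 CPM. They held 98.7 ± 0.021% of counts. A further 584 IDs carry the word gene_source in that column, which names no biotype, and they held 0.671 ± 0.025% of counts. Long intergenic RNAs (lincRNA) were detected for 144 of 914 IDs and held 0.240 ± 0.016% of counts. Processed transcripts were detected for 129 of 1106 IDs with 0.235 ± 0.014% of counts, and antisense genes for 45 of 696 IDs with 0.022% of counts. None of the 1287 snRNA, 780 rRNA and 767 miRNA IDs reached a mean of 1 CPM. Their median effective lengths were 0, 1.90 and 0 bases, and the libraries were made from polyA RNA. What part length or RNA selection has in these low counts was not tested. The 2 mitochondrial rRNA IDs (Mt_rRNA) did reach a mean of 1 CPM. The rRNA IDs still held 1.64% of the summed FPKM, at a median effective length of 1.90 bases.

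The median biological CV (the spread between pools once counting error is taken off, in percent of the mean) was 9.07% over protein coding genes and 14.4% over the 44 lincRNAs above 5 CPM. Their median levels were 23.3 and 16.3 CPM. Over all genes, the median biological CV was 11.9% at 5 to 10 CPM and 7.59% at 50 to 100 CPM. The lincRNA with the highest FPKM was CT027638.1, with 149, 386, 293, 268 and 461 CPM. It was lowest in control 1 and highest in control 6. CR383676.1, which the reference names malat1, a nuclear long RNA, had 722, 681, 632, 589 and 887 CPM. The lincRNA CU927934.1 had 0.849 CPM in control 1 and between 5.41 and 9.65 CPM in the others, and CU927934.3 had 0.959 CPM in control 1 and between 5.75 and 9.60 CPM in the others. Of the IDs marked processed_transcript, rps20, a ribosomal protein gene, led with 2784 ± 296 FPKM. Antisense counts depend on how strand was counted, and the highest antisense IDs were BX000438.2 and FP085414.1, the latter with 24.4 CPM.

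Spread between the 5 pools was small for most genes. Over the 13187 genes with a mean of at least 5 CPM, which held 98.5% of counts, the median raw CV was 10.1% and the median expected from counting alone 3.77%. The median biological CV was 9.12%, with quartiles of 5.71% and 14.0%, and the common biological CV fitted by edgeR was 13.7%. For 586 genes, 4.44%, the spread was no larger than counting error. A biological CV of at least 20% was found in 1371 genes, of at least 30% in 397 and of at least 50% in 65 (0.493% of the genes). For variability between control pools, that last count depends on the settings, with 264 genes from 1 CPM, 38 from 10 CPM and 20 by the gene-wise dispersion of edgeR. The highest library was at least 2 times the lowest in 502 genes (3.81%) and at least 10 times in 11.

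**Figure D4:**
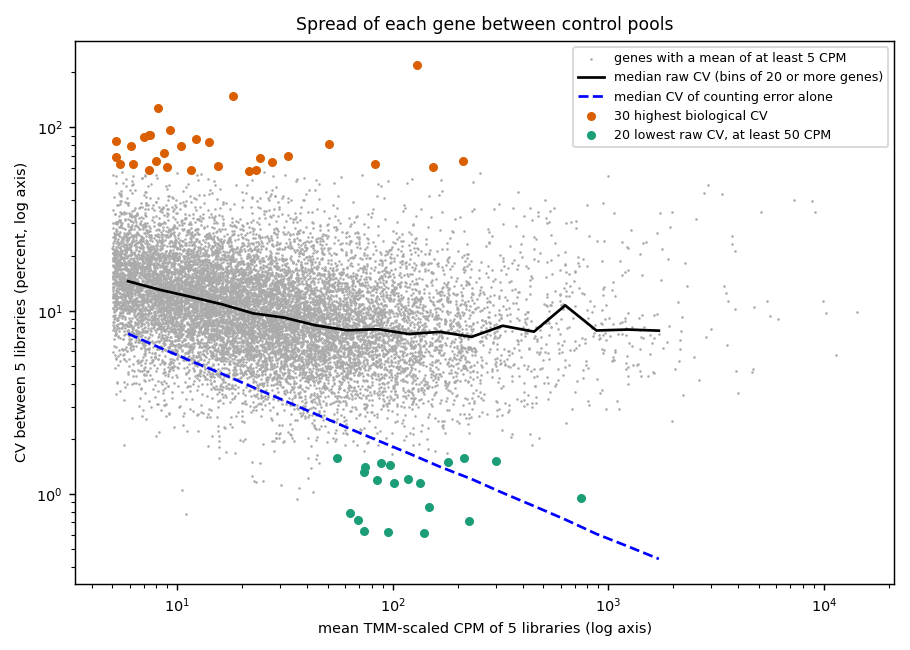
Each grey point is a gene with a mean of at least 5 CPM, placed by its mean CPM and by its raw CV in percent over 5 control libraries (both log axes). The black line is the median raw CV, the dashed blue line the median CV from counting alone, orange marks the 30 genes with the highest biological CV, and green the 20 with the lowest raw CV, most of them at or below the dashed line.

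The pools were not equally far from each other. Controls 2 and 3 were the closest, with a median absolute log2 difference of 0.08 and 6 genes differing at least 2 times. Controls 4 and 6 came next, with 0.12 and 54 genes. The other 8 pairs had medians from 0.13 to 0.18 and between 73 and 181 such genes. The first principal component of log2 CPM took 53.8% of the variance and set controls 2 and 3 against controls 4 and 6, and the second took 23.4% and set control 1 apart. Among all genes, controls 4 and 6 were the pair with the highest levels in 20.6% and controls 2 and 3 in 19.2%. Among the 65 most variable genes these shares were 46.2% and 38.5%. Those 65 were chosen by their spread between the same libraries, so their shares are a description and no support for the pairing. The labels give no date, clutch or sequencing lane for these libraries, so no batch can be set beside this pairing.

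The largest spread of all belonged to BX000534.1, with 0.979, 1.03, 10.5, 1.42 and 632 CPM and a biological CV of 217%. The reference gives it the symbol of another ID, si:dkey-26g8.4, which had 1931, 2773, 2272, 2029 and 910 CPM. The first was high where the second was low, in control 6. Their counts were not whole in any library, and their sum was 1932, 2774, 2282, 2030 and 1542 CPM, a span of 1.80 times. The related ID si:dkey-239j18.2 had 206, 379, 314, 117 and 39.7 CPM. The 5 IDs of this cluster together spanned 2.11 times, with control 2 the highest and control 6 the lowest. Single IDs of the cluster are therefore uncertain, and how reads were divided among them was not tested.

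A few other genes were far higher in control 6 alone. The gene zgc:158846 had 4.35, 6.36, 6.85, 6.98 and 66.2 CPM, and its biological CV of 148% fell to 18.8% without control 6. The glucocorticoid-induced immunophilin fkbp5 had 3.78, 1.85, 1.08, 7.85 and 26.04 CPM. The amino acid transporter family gene slc6a15 had 11.4 CPM in control 6 and between 3.49 and 5.11 CPM in the others. Without control 6, the raw CV of fkbp5 went from 128% to 83.1%, that of slc6a15 from 63.1% to 20.6%, that of the lens crystallin crygm2d14 from 84.2% to 38.9%, and that of BX000534.1 from 218% to 134%.

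**Figure D5:**
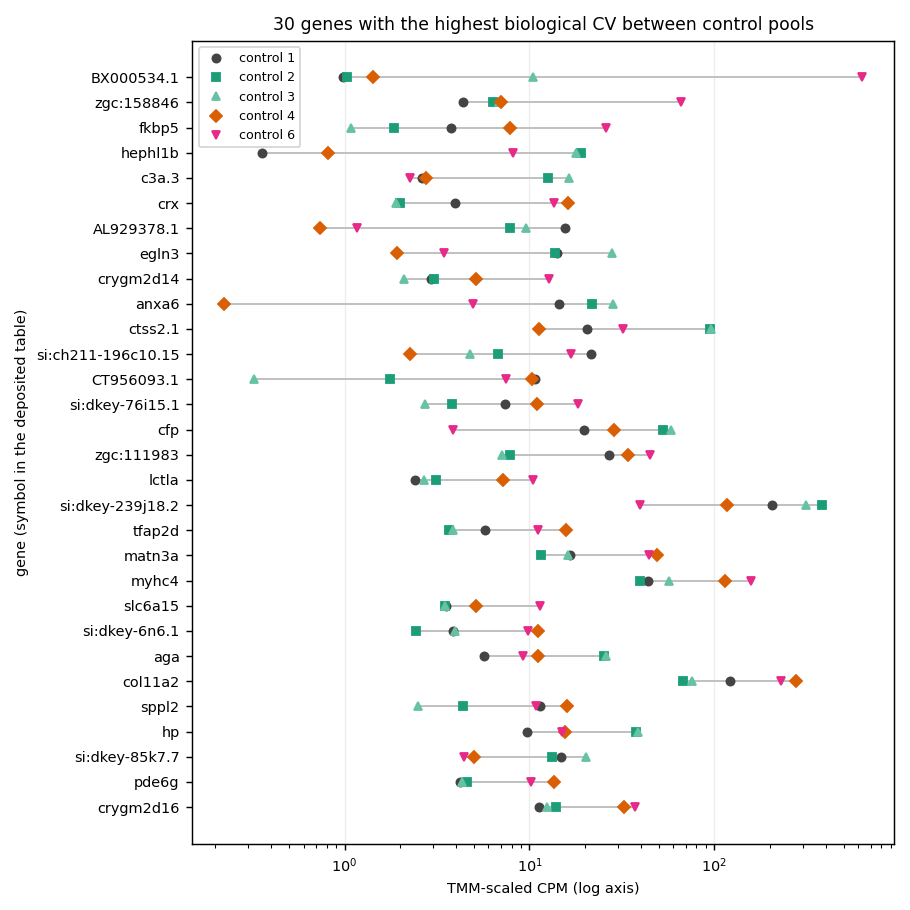
Each row is 1 of the 30 genes with the highest biological CV among genes with a mean of at least 5 CPM, each point is 1 control library, the grey line spans the libraries, and the x axis is CPM on a log scale. BX000534.1, zgc:158846 and fkbp5 have control 6 far to the right, and ctss2.1 and aga have controls 2 and 3 together on the right.

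Several of the variable genes were high in controls 2 and 3. The cathepsin S gene ctss2.1, a lysosomal protease, had 20.4, 94.1, 95.6, 11.2 and 32.0 CPM. The ferroxidase relative hephl1b had 0.356, 19.1, 17.9, 0.810 and 8.17 CPM, and the complement gene c3a.3 had 2.63, 12.6, 16.4, 2.75 and 2.27 CPM. The lysosomal enzyme aga had 5.70, 25.4, 25.97, 11.1 and 9.18 CPM. Each had its top values in controls 2 and 3. The properdin gene cfp, of the alternative complement pathway, had 19.6, 52.6, 58.0, 28.8 and 3.85 CPM. The annexin anxa6, a calcium-dependent membrane binder, had 14.5, 21.8, 28.4, 0.223 and 4.98 CPM, with control 4 near 0. The oxygen-response genes egln2 and vhl, outside the hypoxia list, were like egln3 lower in controls 4 and 6 than in the other 3. The gene egln2 had 12.6, 14.9, 21.9, 7.20 and 5.94 CPM. The gene vhl, which marks the hypoxia factor for breakdown, had 6.19, 8.82, 8.45, 2.23 and 3.14 CPM. Both were singled out after their values were seen. In the hypoxia list itself, control 3 was the highest library for 7 of 13 genes above 5 CPM, against 17.7% of all genes. Control 4 or 6 was the highest for 6, against 41.9% of all genes. The lowest library was control 4 for 6 of the 13, against 23.9% of all genes.

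Others were high in controls 4 and 6. Matrilin 3, matn3a, a cartilage matrix gene, had 16.6, 11.5, 16.1, 49.1 and 44.5 CPM, and the fast myosin gene myhc4 had 43.6, 39.5, 56.6, 114 and 158 CPM. The transcription factor tfap2d had 5.75, 3.65, 3.88, 15.7 and 11.1 CPM. The phototransduction gene pde6g had 4.23, 4.58, 4.30, 13.6 and 10.15 CPM, and like crx it was highest in control 4 and next in control 6. The gamma crystallin crygm2d16 had 11.3, 13.9, 12.4, 32.3 and 37.4 CPM, and its counts were not whole in any library. Of the 65 genes with a biological CV of at least 50%, 10 were in a gene list. Over all 32266 IDs, of which 5414 had no count in any control, 695 were in a list. That share was taken without the minimum of 5 CPM, so these shares cannot be set against each other. From 5 CPM, the 10 were 4 of 14 heat shock genes, 2 of 9 notochord genes, 1 of 9 retinal progenitor genes and 1 of 13 hypoxia genes. The others were 1 of 3 cartilage and bone genes and the 1 photoreceptor and pineal gene. Over all genes from 5 CPM the share was 0.493%, and the remaining lists had none.

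At the other end were genes whose level hardly moved. Among 3505 genes with a mean of at least 50 CPM, 721 (20.6%) had a raw CV of at most 5%. The dynein intermediate chain dync1i2a, part of a microtubule motor, had 139, 141, 140, 139 and 139 CPM and a raw CV of 0.612%. The prefoldin subunit vbp1, which helps fold tubulin and actin, had a raw CV of 0.628%, and si:ch211-114c12.2 one of 0.624%. The translation repressors eif4ebp2 and eif4ebp1 had raw CVs of 0.713 and 1.15%, the ubiquitin-conjugating enzyme ube2na 0.848% and the kinase csnk1g2a 0.790%. The neural factor sox11b had the highest FPKM of the 20 steadiest genes, with a mean of 295 ± 7.24. It had 741, 738, 753, 749 and 738 CPM, a raw CV of 0.948%. The ubiquitin ligase scaffold cul1a, the nuclear pore protein nup214, the splicing factor u2af2b and the coat protein sec24c were also among the 20. For most of them the spread lay below what counting alone would give, so their order among themselves cannot be read. The low spread chose these 20 genes, so it is a description.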

How the data were processed

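RNA-seq libraries of polyA RNA from pools of 10 zebrafish embryos at 33 hpf were used, 5 control libraries of 10 in the series. Per the labels' protocols, library preparation was strand-specific and sequencing paired-end. The submitters' processing notes name BWA 0.7.12-r1039, STAR 2.5.3a, RSEM 1.3.0, bedtools and the builds GRCz10 and danRer10, with no order or role. The authors deposited an expected count per gene and library, which is an estimate and can hold a fraction, and a log2 FPKM with an offset of 0.1 inside the logarithm, which was undone. Between 17.8 and 21.6% of the expected counts were not whole, as where a read that matches several genes is split, and near-identical, overlapping or antisense genes are uncertain. Whether counting used the strand is not given in the sources used here. Gene symbols follow the deposited table. A separate list of gene names covered 26433 of the IDs.

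Counts were scaled with TMM factors (edgeR 4.0.16, R 4.3.3; factors 0.962 to 1.01) to CPM. The raw CV is the SD over 5 libraries divided by the mean. The biological CV is the square root of its square less the squared CV expected from Poisson counting, or 0 where that is negative. A list's level is the summed FPKM of its matched IDs, and members without an ID in the table were left out. Detection meant a mean of at least 1 CPM, and variability was computed from 5 CPM. The scripts were tested on simulated data, with Python 3.11.15, numpy 2.4.6 and pandas 2.3.3.

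Named were the 30 genes highest in mean FPKM, the 30 with the highest biological CV from 5 CPM, the 20 with the lowest raw CV from 50 CPM, for each list the 3 highest in FPKM and the most variable, and for each other biotype with 10 detected genes the 2 highest. Genes outside this rule that the text names were chosen after their values were seen. The libraries and lists were chosen with earlier results of these data known. With 1 group, no comparison was tested and no p-value is given. No sequences are shown, as none were at hand for these genes. Alternatives were other normalizations (DESeq2 1.42.0 size factors, library totals), other filters, deposited FPKM, FPKM from counts and length, thinning and leaving out each library. The text gives a selection of the genes this rule names.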

Additional observations from a re-analysis of the deposited data

Results flagged for a closer look

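In 254 groups of 5 values examined (library measures, list sums and named genes), 13 had 1 library whose gap to its nearest neighbour took up most of the whole range, by Dixon's criterion for 5 values. Chance alone marks about 1 in 20 independent groups, but these groups share the same libraries and include genes chosen for high or low spread, so that share is not a yardstick here. Of the 13, 8 were in control 6, 3 in control 1, 2 in control 4 and 0 in controls 2 and 3. Depth was among them, with 21.5 M counts in control 6 and 32.8 to 36.0 M in the others.

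Control 6 was alone at the top for BX000534.1 with 632 CPM, zgc:158846 with 66.2 CPM, fkbp5 with 26.04 CPM, slc6a15 with 11.4 CPM, mt-co3 with 4566 CPM and the crystallin crygm2d14 with 12.7 CPM, and alone at the bottom for the endothelial factor etv2 with 7.44 CPM, where the others had 11.7 to 13.3 CPM. Control 1 was alone at the top for the more abundant afp4 ID with 706 CPM and for btg2 with 239.4 CPM, and alone at the bottom for the summed pituitary genes with 3.22 FPKM, where the others had 4.40 to 4.69 FPKM. Control 4 was alone at the top for the beta globin hbbe1.2 with 1682 CPM, where the others had 1015 to 1181 CPM, and for fli1a with 50.7 CPM. Counts of hbbe1.2 and crygm2d14 were not whole in any library, and how reads were divided was not tested. Of the other hbbe1 IDs named here, hbbe1.1 was highest in control 2 with 1473 CPM. The ID hbbe1.3 was highest in control 4 with 1751 CPM, against 1568 CPM in control 2.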

How the results depend on the processing

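Of 1862 values recomputed under an alternative, 1813 were marked unchanged and 49 were not. Levels and shares had to move by less than the SD between libraries. Counts and the median CV had to stay within 1.5 times of the main value. For each of the 30 most variable genes, the biological CV only had to stay at 50% or more, however far it moved. Leaving out 1 of 5 libraries cannot move a mean by as much as the SD. Those means could only be marked unchanged, so the tally does not measure how stable they are. Leaving out each library in turn gave, for the abundance of genes in control siblings, 18021 to 18053 detected genes, and 7 to 10 lists spanning at least 1.5 times, 98.7% of counts in protein coding genes and 58 to 78 genes with a biological CV of at least 50%. That last count, for variability between control pools, was 65 and became 264 with a minimum of 1 CPM, 38 with 10 CPM, 3770 with no filter and 20 with edgeR's shrunken gene-wise dispersion. For tissue list levels, the 10 lists became 16 when the median of detected members replaced the sum. For biotype shares, protein coding genes held 95.9% of summed FPKM in place of 98.7% of counts, and short rRNA IDs carry part of that gap. Of the 30 most variable genes, 16 to 23 were shared when a library was left out, fewest without control 6. Leaving out genes under 300 bases and summing detected members only were chosen after seeing the data. No paired analysis was possible because 1 group was used and nothing was compared with another group. Control 6 had the fewest counts, and genes near 5 CPM carry the largest counting error.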
